A study of Mus musculus with 6 samples.

Results

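Here 8 genes that encode transcription factors were followed, of 55538 features counted in single peritoneal cells of mice. They are Gata6 and 7 nuclear receptors, namely the liver X receptors Nr1h3 (LXRα) and Nr1h2 (LXRβ), the peroxisome proliferator-activated receptors Pparg and Ppard, the retinoid X receptor Rxra, and the retinoic acid receptors Rara and Rarb. The 8 were chosen by name for what they are known to do in macrophages (MΦs), though with earlier results of these data known.

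Peritoneal cells were lavaged from C57BL/6 mice that were either Mertk+/+ or Mertk-/-, aged 8 to 12 weeks, and the cells of 3 mice were pooled for each library. Mertk-/- is the MerKD line with a mutated gene for the efferocytosis receptor MerTK, backcrossed to C57BL/6J. Cells that adhered to plastic within 1 h were given a change of media (control), or human Jurkat T cells carrying GFP and made apoptotic by UV light, for 2 h or 6 h. Each of these 6 combinations of genotype and condition had 1 library, made with droplet single-cell RNA-seq. The deposited cells carry a library number from 1 to 6 that no label ties to a sample, so neither genotypes nor time points are compared. Levels are given over the pool and by library number, which only names a library. No p-value is given, since cells of 1 library are not replicates and libraries of unmatched conditions are not replicates either.

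Gata6 is the zinc-finger factor that sets the identity of large peritoneal MΦs (LPMs), and retinoic acid from the surrounding tissue is known to induce it. The nuclear receptors of this set bind DNA as partners of a retinoid X receptor and are switched by lipid ligands, namely oxysterols for LXRs, fatty acid derivatives for PPARs and retinoic acid for RARs. In MΦs that take up dead cells, LXRs and PPARs are known to turn on genes of cholesterol efflux, lipid storage and further clearance.

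Cells were sorted into groups by their own unique molecular identifiers (UMIs, 1 per captured RNA molecule). MΦs had at least 2 UMIs of Csf1r, Adgre1 and Fcer1g together, at most 2 of Cd79a and Cd79b, and at most 1 of Cd3d, Cd3e and Nkg7. B cells had at least 4 UMIs of Cd79a and Cd79b, and T/NK cells at least 2 of Cd3d, Cd3e and Nkg7. Of 7665 cells kept, 2773 were MΦs, 3101 were B cells and 667 were T/NK cells, with median depths of 4426, 5561 and 3206 UMIs per cell. The B and T/NK groups shared 153 cells, which had a median of 10045 UMIs. MΦs were then divided by at least 1 UMI of Selp (885 cells), which encodes P-selectin and is carried by LPMs, of Folr2 (134 cells), which encodes a folate receptor, or of Irf4 (277 cells), a factor of small peritoneal MΦs (SPMs) and dendritic cells. Cells with 1 of the 3 genes alone (861 Selp+ only, 108 Folr2+ only, 240 Irf4+ only) and 1521 cells with none of them formed 4 separate groups.

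The 6 libraries held 4234786 to 10287079 UMIs and 225 to 690 MΦs each, and 28 barcode sequences occurred in more than 1 library. All 12 MΦ markers that the rule had not used were detected in the MΦ group, at 25530 CPM in sum (CPM is a gene's UMIs scaled to a group total of 1000000), against 1034 CPM in B cells. T/NK cells held 2212 CPM of them, with a range over libraries of 349 to 4667 CPM. Among MΦs, 6 of 8 mesothelial markers were at 0. The B cell list reached 319 CPM, the monocyte list 251 CPM, the T cell list 94.1 CPM and the dendritic cell list 48.7 CPM. In Irf4+ MΦs the dendritic cell list was at 76.9 CPM, with 27.8 to 414 CPM over libraries. In Selp+ MΦs it was at 24.99 CPM, with 16.6 to 35.5 CPM. Whether the Irf4+ MΦs included dendritic cells was not tested. Of the B cell list, Cd24a had UMIs in 46.4% and Cd37 in 33.6% of MΦs. Both were in fewer Irf4+ than Selp+ MΦs (Cd24a 38.3% against 55.4%, Cd37 27.1% against 46.6%). The other genes of that list were each in a larger share of Irf4+ than of Selp+ MΦs. Ighm was in 10.1% against 2.03%, Ebf1 in 5.05% against 1.02% and Ms4a1 in 2.53% against 0.226%. Il7r was the most widely detected gene of the T cell list, in 17.9% of MΦs and in 52.7% of Irf4+ MΦs. The next gene of that list in Irf4+ MΦs was Lat, in 2.89%. Of 8 granulocyte markers, Ly6g, Epx and Prg2 had no UMI in MΦs, and S100a8 and Siglecf went opposite ways. S100a8 was detected in 11.8% of Selp+ and 2.17% of Irf4+ MΦs. Siglecf was detected in 21.3% of Irf4+ MΦs and in none of the 885 Selp+ MΦs. That count of 0 allows up to 0.339% of cells with a UMI at this depth and sets no limit on cells that express it. Whether cells of other types moved any result below was not tested except where values are given. Mertk itself was read at 24.1 CPM in MΦs and at 17.4 to 33.9 CPM over the 6 libraries. The part of the gene that the mutation removes is not given in the sources used here, so these reads do not check a genotype.

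A level below is the CPM of a group with a 95% exact Poisson interval in parentheses, and a share of cells has a 95% exact binomial interval. Both cover counting error only. A ratio of groups is given on the log2 scale with 1 CPM added to each level, which understates changes of low genes. A gene was tested in a comparison where the mean of both groups was at least 5 CPM, and it is called higher or lower here where the pooled log2 ratio was at least 1 in size and all 6 libraries had the same sign. A gene under 5 CPM in 1 group was thus tested only through its level in the other, and its call there is a description.

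Gata6 (chromosome 18, 11052064 to 11085635, plus strand, GRCm38) was read in MΦs at 76.5 CPM (71.9–81.3), from 1054 UMIs, and 23.7% of MΦs carried at least 1 UMI (22.1–25.3). Library 1 held 92.3 CPM, library 2 held 86.2, library 3 held 46.3, library 4 held 70.9, library 5 held 87.7 and library 6 held 50.7. Libraries 3 and 6 were thus the low ones, and every library was far above the lymphocytes. B cells held 0.895 CPM (0.531–1.41) with UMIs in 0.451% of cells, and T/NK cells held 3.78 CPM (2.02–6.47) with UMIs in 1.35% of cells. Without the 153 cells that were also in the B group, T/NK cells held 6.60 CPM (3.41–11.5). The log2 ratio of MΦs over B cells was 5.35, with 4.93 to 5.93 in the single libraries, and that over T/NK cells was 4.02, with 3.38 to 6.47.

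The Gata6 UMIs of lymphocytes lay in cells that also carried MΦ genes. All 14 B cells and all 9 T/NK cells with a Gata6 UMI also had a UMI of Csf1r or Adgre1. Among lymphocytes with neither of these genes, Gata6 was found in 0 of 2979 B cells and 0 of 633 T/NK cells. A count of 0 allows up to 3, that is 0.157 CPM in these B cells and 0.972 CPM in these T/NK cells. Of the GATA family, Gata1, Gata4 and Gata5 had no UMI in MΦs, while Gata3, a factor of T cells, was read at 22.1 CPM in T/NK cells against 0.435 CPM in MΦs.

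Within MΦs, Gata6 was graded across the 4 separate groups. Its level was 114 CPM (105–124) in Selp+ only MΦs and 62.7 CPM (56.9–69.0) in MΦs with none of the 3 genes. It was 22.4 CPM (11.2–40.1) in Folr2+ only MΦs, from 11 UMIs, and 19.6 CPM (12.3–29.6) in Irf4+ only MΦs, from 22 UMIs. The first of these neighbours were in this order in 5 of 6 libraries and the next pair in 6 of 6, whereas Folr2+ only and Irf4+ only MΦs had overlapping intervals and were in this order in 3 of 6.

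Selp+ MΦs carried 2.09 times as much Gata6 as Selp- MΦs (1.84–2.36), at 113 against 54.1 CPM. By library, Selp+ MΦs held between 85.3 and 132 CPM (median 104) and Selp- MΦs between 32.1 and 86.1 CPM (median 49.9), so the ranges just overlapped. The log2 ratio was 1.05 and above 0 in 6 of 6 libraries (0.09 to 1.45), which is just past the limit for a call. Library 5 had the smallest difference. The ratio was 0.82 without library 1, 0.99 without library 3, 0.99 without library 6 and 1.00 with 5 CPM added in place of 1, and each of these ended the call. Selp+ MΦs were also deeper, with a median of 5541 against 3980 UMIs. When every cell was thinned to 1500 UMIs, 13.7% of Selp+ MΦs and 7.47% of Selp- MΦs carried Gata6, and with the groups drawn anew from thinned counts the log2 ratio was 0.59.

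Irf4+ MΦs held less Gata6, at 22.9 CPM (15.6–32.5) against 82.3 CPM in Irf4- MΦs. The 6 libraries had 56.5, 20.7, 9.26, 10.1, 0 and 23.6 CPM in Irf4+ MΦs, while Irf4- MΦs lay between 57.6 and 94.5 CPM, so the ranges did not overlap. The log2 ratio was -1.80, was below 0 in 6 of 6 libraries and was called. Selp+ only over Irf4+ only MΦs gave 2.48, also called, with 1.62 to 6.89 over libraries. Folr2+ MΦs held 28.2 CPM (16.7–44.5), with a log2 ratio to Folr2- MΦs of -1.45. It was negative in 5 of 6 libraries and was not called, since library 3 had 4 UMIs at 54.7 CPM in its 12 Folr2+ cells. Without library 3 the ratio was -1.70 and was called.

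**Figure D1:**
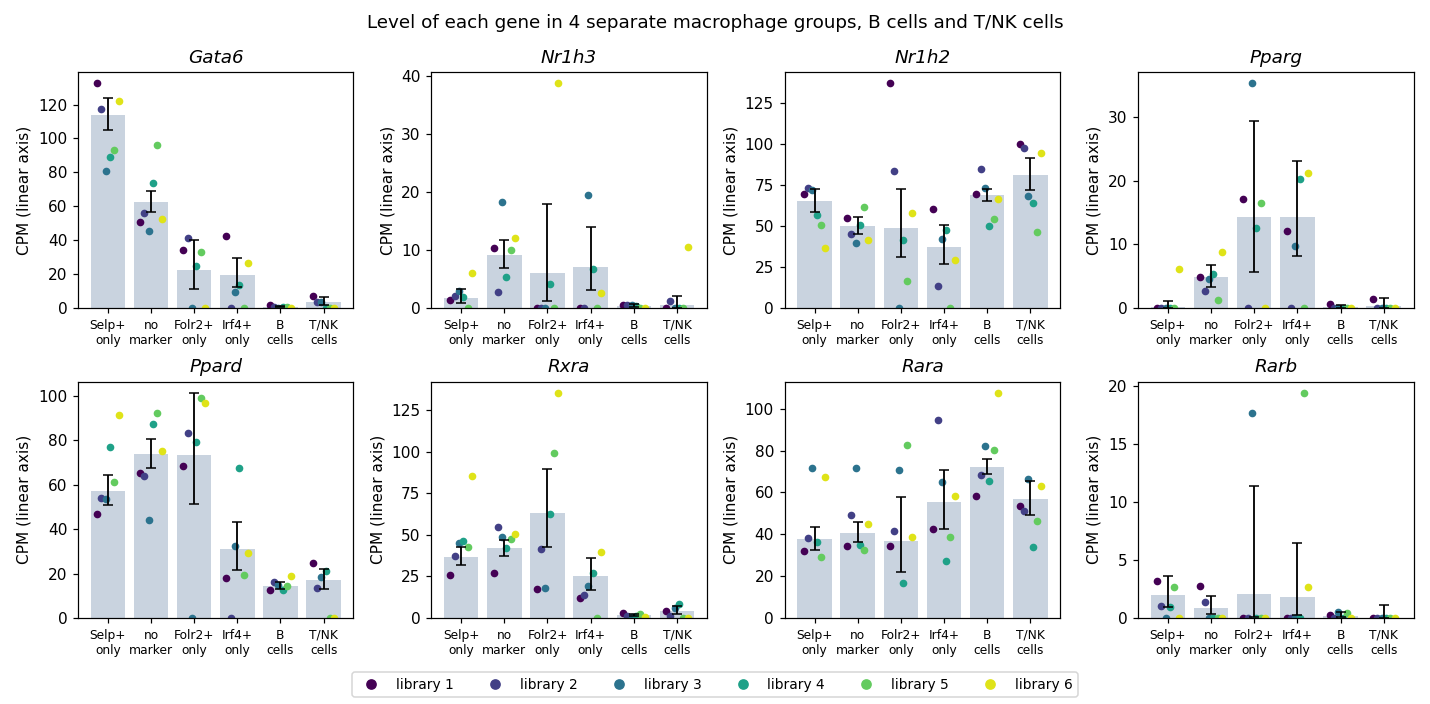
Level (CPM, linear axis, 1 scale per gene) of each of the 8 genes in 4 separate MΦ groups, B cells and T/NK cells. Bars are pooled levels with 95% Poisson intervals and coloured points are the 6 libraries. Gata6 stands at 114 CPM in Selp+ only MΦs and 0.895 CPM in B cells, while Nr1h2 and Rara are as high or higher in lymphocytes. Single points of the small Folr2+ only and Irf4+ only groups can rest on 1 UMI.

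Of the LXR pair, Nr1h2 was found throughout and Nr1h3 was scarce. Nr1h3 (chromosome 2, 91184061 to 91202834, minus strand) had 83 UMIs in MΦs, at 6.02 CPM (4.80–7.47), and was seen in 2.38% of MΦs. Its exons overlap those of Gm13783 on the same strand, so reads of the 2 genes may have been divided or lost in counting. By library number MΦs held 5.06, 2.22, 13.7, 4.12, 6.16 and 10.3 CPM, with libraries 3 and 6 the high ones. B cells held 8 UMIs (0.398 CPM, 0.258% of cells) and T/NK cells held 2 (0.582 CPM, 0.300% of cells). MΦs were above B cells in 6 of 6 libraries, with a ratio of 15.1 (7.34–36.2), but Nr1h3 was under 5 CPM in the mean and so was not tested there. All 8 UMIs in B cells were in cells with no Csf1r or Adgre1 UMI, in contrast to those of Gata6.

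Nr1h3 was lower in Selp+ MΦs. It had 9 UMIs there (1.72 CPM, 0.785–3.26) and 74 in Selp- MΦs (8.67 CPM, 6.81–10.9), a log2 ratio of -1.83 that was below 0 in 6 of 6 libraries and was called. It reached the mean of 5 CPM only through the Selp- cells, so this call is a description of a gene that the filter admitted for its high group. In no library did Selp+ MΦs hold more than 3 UMIs of it. Without library 3 the ratio was -1.68 and without library 6 it was -1.84, but the gene then fell under 5 CPM and was not tested. Cells split by Gata6 itself gave the same sign, with 2.53 CPM in Gata6+ and 7.43 CPM in Gata6- MΦs, a log2 ratio of -1.26 that was negative in 6 of 6 libraries but just under the 5 CPM needed for a test. Gata6+ MΦs were deeper, at a median of 5542 against 4134.5 UMIs. Irf4+ MΦs, at 6.65 CPM, and Folr2+ MΦs, at 6.26 CPM, had log2 ratios of 0.14 and 0.05 to the MΦs without those genes, from 9 and 4 UMIs. Neither sign is settled, since library 3 held 6 of the 9 and library 6 held 3 of the 4. The Irf4 ratio was -0.70 without library 3 and -1.48 as the median of library ratios, and the Folr2 ratio was -1.24 without library 6 and -2.17 as the median.

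Nr1h2 (chromosome 7, 44549616 to 44553951, minus strand) was read at 54.6 CPM (50.8–58.7) in MΦs, 68.5 CPM (65.0–72.3) in B cells and 80.9 CPM (71.7–91.0) in T/NK cells. MΦs were below B cells in 5 of 6 libraries, with a log2 ratio of -0.32, and below T/NK cells in 5 of 6, with -0.56, and neither was called. Within MΦs its level was 64.9 CPM in Selp+ and 48.4 CPM in Selp- cells, with a log2 ratio of 0.42 that was positive in 4 of 6 libraries. It was 40.7 CPM in Irf4+ MΦs, and Selp+ only over Irf4+ only MΦs gave 0.78 in 6 of 6 libraries, under the limit for a call.

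As a share of the UMIs of both LXR genes, Nr1h3 made up 9.93% in MΦs (7.99–12.2), against 0.577% in B cells (0.250–1.13) and 0.714% in T/NK cells (0.0866–2.56). It made up 2.58% in Selp+ MΦs (1.19–4.84) and 15.2% in Selp- MΦs (12.1–18.7). Over the 6 libraries the share in all MΦs ran from 3.57% to 22.9%.

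Of the PPAR pair, Ppard was widespread in MΦs, and Pparg was rare and lay mostly outside the Selp+ cells. Pparg (chromosome 6, 115360951 to 115490399, plus strand), which encodes PPARγ, known in MΦs for lipid uptake and alternative activation, had 59 UMIs in MΦs (4.28 CPM, 3.26–5.52). It was seen in 1.91% of MΦs, 0.0645% of B cells and 0.150% of T/NK cells. By library number MΦs held 2.76, 1.11, 5.79, 5.004, 1.54 and 11.6 CPM, from 2 to 18 UMIs, with library 6 the highest. Only 2 of the 59 UMIs were in Selp+ MΦs (0.382 CPM), both in library 6, against 57 in Selp- MΦs (6.68 CPM), a ratio of 0.0571 (0.00676–0.216). The sign was negative in 6 of 6 libraries, but the mean was under 5 CPM and the gene was not tested.

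Pparg was denser in the small groups, at 14.1 CPM (6.44–26.7) from 9 UMIs in Folr2+ MΦs and 12.6 CPM (7.32–20.1) from 17 UMIs in Irf4+ MΦs. The log2 ratios were 1.65 and 1.63, each positive in 4 of 6 libraries, and neither was called. Libraries 2 and 5 had no Pparg UMI in their 16 and 18 Irf4+ MΦs. Selp+ only MΦs had 1 UMI and Irf4+ only MΦs had 16, a ratio of 0.0139 (0.000330–0.0892). Here 4 libraries were negative, none was positive and the others held no UMI in either group, so there was no call.

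Ppard (chromosome 17, 28232700 to 28301474, plus strand), which encodes the PPAR of wide tissue distribution, was read at 64.2 CPM (60.1–68.6) in MΦs, in 25.7% of cells. B cells held 14.5 CPM (12.9–16.2), in 8.67% of cells, and T/NK cells held 17.2 CPM (13.1–22.2), in 8.55%. Between MΦs and B cells the library ranges were 41.2 to 82.4 CPM and 12.4 to 18.8 CPM, with no overlap. The log2 ratios of 2.08 over B cells and 1.84 over T/NK cells were positive in 6 of 6 libraries and were called. B cells with no Csf1r or Adgre1 UMI still held 13.5 CPM, so Ppard, unlike Gata6, was read in lymphocytes that carried neither gene. Irf4+ MΦs held 40.7 CPM (30.6–52.9) against 66.8 CPM in Irf4- MΦs, with a log2 ratio of -0.70 that was negative in 6 of 6 libraries and under the limit for a call.

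Pparg made up 6.25% of the UMIs of both PPAR genes in MΦs (4.79–7.99). It made up 0.342% in Selp+ only (0.00867–1.89), 6.16% in no-marker (4.28–8.54), 16.3% in Folr2+ only (6.81–30.7) and 31.4% in Irf4+ only MΦs (19.1–45.9). The last 2 shares rest on 43 and 51 UMIs of both genes, and in the Irf4+ only group single libraries ran from 0% to 42.1%. In B cells the share was 1.02% (0.211–2.95).

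**Figure D2:**
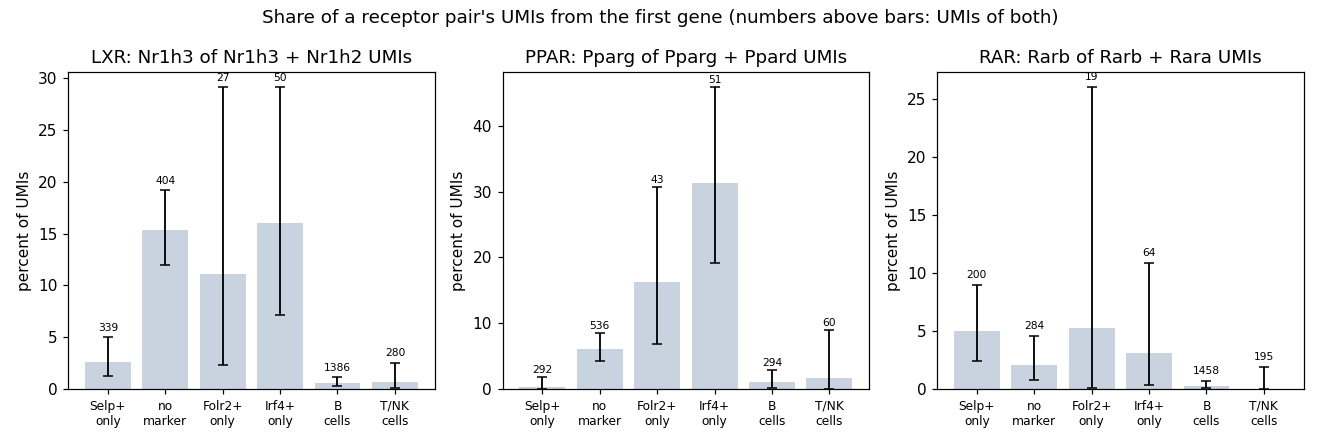
Percent of the UMIs of a receptor pair that came from its rarer gene (LXR, Nr1h3; PPAR, Pparg; RAR, Rarb) in 4 separate MΦ groups, B cells and T/NK cells, with 95% binomial intervals; numbers above bars are the UMIs of both genes. Nr1h3 stands at 2.65% in Selp+ only and 15.3% in no-marker MΦs, and Pparg at 0.342% in Selp+ only and 31.4% in Irf4+ only MΦs.

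Rxra (chromosome 2, 27676440 to 27762957, plus strand), the common partner of the other receptors, was read at 39.0 CPM (35.7–42.4) in MΦs, in 16.7% of cells. B cells held 1.54 CPM (1.05–2.19), in 0.935% of cells, and T/NK cells held 4.08 CPM (2.23–6.84), in 1.95%, or 7.70 CPM (4.21–12.9) without the cells also in the B group. The log2 ratios of 3.98 and 2.98 were positive in 6 of 6 libraries and were called. In B cells with no Csf1r or Adgre1 UMI the level was 0.997 CPM (0.601–1.56). Of the other retinoid X receptors, Rxrb went the other way in level, at 11.1 CPM in MΦs and 18.7 CPM in B cells, and Rxrg had 2 UMIs in MΦs.

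Rxra in MΦs was 25.3, 43.4, 39.8, 44.2, 46.2 and 54.0 CPM by library number, with library 1 the lowest. Selp+ and Selp- MΦs held 36.2 CPM (31.3–41.8) and 40.6 CPM (36.5–45.2), with a ratio of 0.892 (0.743–1.07) and libraries divided 3 to 3 in sign. Irf4+ MΦs held 25.1 CPM (17.4–35.1) against 40.5 CPM in Irf4- MΦs, a log2 ratio of -0.67 that was negative in 6 of 6 libraries and not called. Without library 6, which holds 121 of the 277 Irf4+ MΦs, it was -1.04 and was called. Folr2+ MΦs held 54.7 CPM (38.1–76.1), and 4 of 6 libraries were above 0.

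Rara (chromosome 11, 98927818 to 98974942, plus strand) had, like Nr1h2, log2 ratios of MΦs over lymphocytes below 0, none of them called. It was read at 41.0 CPM (37.7–44.5) in MΦs, 72.3 CPM (68.6–76.1) in B cells and 56.8 CPM (49.1–65.3) in T/NK cells, or 44.0 CPM (34.9–54.7) in T/NK cells that were not also in the B group. The log2 ratio to B cells was -0.80 and negative in 6 of 6 libraries, under the limit for a call, and that to T/NK cells was -0.46 and negative in 4 of 6. MΦs of library 3, at 71.6 CPM (58.2–87.2), stood above those of the other libraries, which lay between 33.9 and 48.8 CPM. Irf4+ MΦs held 56.9 CPM (44.9–71.1) and Irf4- MΦs 39.3 CPM, a log2 ratio of 0.52 that was positive in 5 of 6 libraries. With stricter group limits this ratio was 0.34. In Irf4+ MΦs the pooled ratios of Rara, Pparg, Rarb and Nr1h3 were above 0 and those of Ppard, Rxra and Nr1h2 below 0, and none of the 7 receptors was called.

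Rarb (chromosome 14, 16430839 to 16819156, minus strand) was near the limit of detection, with 20 UMIs in MΦs (1.45 CPM, 0.887–2.24), 4 in B cells (0.199 CPM) and 0 in T/NK cells, which allows up to 0.873 CPM. Of the 20, 12 were in library 1. Exons of Top2b and Gm48162 overlap it on the other strand. It made up 3.42% of the UMIs of Rarb and Rara in MΦs (2.10–5.23), and 0.274% in B cells (0.0748–0.701).

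Rarb is a textbook target of retinoic acid, and its promoter is shown because it alone among the members held a receptor motif in the windows searched. Direct repeats of 2 half-sites (AGGTCA itself, the variant AGTTCA, the variant GGGTCA or the variant GGTTCA) spaced by 1, 4 or 5 bases, written DR1, DR4 and DR5, were searched on both strands of 300-base windows around RefSeq start sites (GRCm38.p6). In all, 14 windows of 7 members were searched and none was given for Gata6. DR1 was held by 0.222%, DR4 by 0.0822% and DR5 by 0.0974% of all 32851 windows. The Rarb window, chr14:16575427-16575726, minus strand, is given 5′ to 3′ with the DR5 in capitals, which begins 53 bases before the start site.
Rarb: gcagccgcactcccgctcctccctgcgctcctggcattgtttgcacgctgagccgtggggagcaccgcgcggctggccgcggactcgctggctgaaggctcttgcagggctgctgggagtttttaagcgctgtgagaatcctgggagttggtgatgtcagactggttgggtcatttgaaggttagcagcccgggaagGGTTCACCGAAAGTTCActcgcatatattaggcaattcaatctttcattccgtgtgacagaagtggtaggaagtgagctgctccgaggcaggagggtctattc
The motif is a match of letters and no measurement of binding, and the RNA of the gene was read in 0.685% of MΦs (0.413–1.07).

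Set side by side, 3 of the 5 members tested were called higher in MΦs than in B cells, namely Gata6, Ppard and Rxra, and none was called lower. Over all features tested, 18% were called higher and 21.1% lower. The same 3 of 5 were called higher than in T/NK cells, where 16.2% of all features were called higher and 17.3% lower, and the MΦs are the same cells in both comparisons. Gata6 and Rxra were under 5 CPM in B cells and in T/NK cells. They passed the filter only through their level in MΦs, so their counts there support nothing. In lymphocytes with no Csf1r or Adgre1 UMI, an alternative chosen after the data were seen, the count was 3 in both comparisons, with log2 ratios of 2.17 for Ppard and 4.32 for Rxra over B cells. That choice left out every lymphocyte with a Gata6 UMI, so no ratio is given for Gata6 and its call there supports nothing.

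Within MΦs, Selp+ over Selp- cells gave 1 member higher (Gata6) and 1 lower (Nr1h3) of 6 tested, against 0.542% and 3.25% of all features. Nr1h3 was among the 6 only through its level in Selp- cells, so its count supports nothing. Irf4+ over Irf4- cells gave 1 of 7 lower (Gata6), against 3.07%, and none higher, against 3.44%. Selp+ only over Irf4+ only cells gave 1 of 6 higher (Gata6), against 4.58%, and none lower, against 5.57%. Folr2+ over Folr2- cells gave 0 of 7, against 1.75% higher and 1.5% lower, and Gata6+ over Gata6- cells gave 0 of 4, Gata6 left out, against 0.173% and 1.85%. The 4 members called in no comparison were Nr1h2, Pparg, Rara and Rarb. Rarb was under 5 CPM in every pooled group and so was never tested. Pparg was not tested against lymphocytes or in the splits by Selp and by Gata6. Without the filter, both would be called higher over B cells, with ratios of 28.7 (9.35–143) for Pparg and 7.30 (2.44–29.4) for Rarb.

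**Figure D3:**
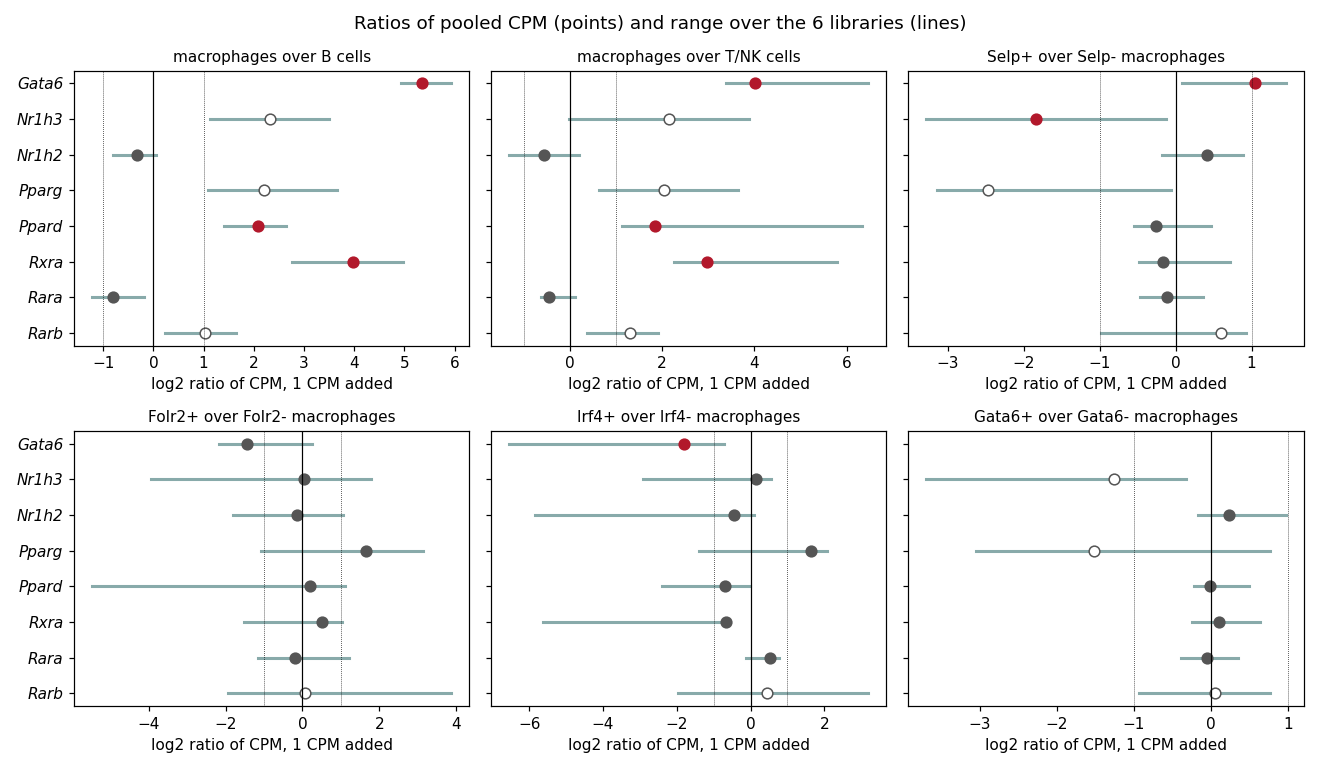
Pooled log2 ratio of CPM (1 CPM added, points) and range over the 6 libraries (lines) for the 8 genes in 6 comparisons; red points were called, grey points were tested and not called, open points were under 5 CPM, and dotted lines mark the limit of 1 in size. Gata6 stands at 5.35 over B cells, 1.05 in Selp+ and -1.80 in Irf4+ MΦs.

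The genes known to respond to these factors were then counted, in lists that were drawn up with results of these data known and describe the levels without tests of their own. Of the list of genes of LPMs, 18 of 19 tested were higher in MΦs than in B cells, against 18% of all features. In Selp+ MΦs 10 of 18 were higher and none lower, against 0.542% and 3.25% of all features, with a median log2 ratio of 1.09 against -0.12 over all features. Garnl3 (1.93), Lrg1 (1.92), Aspa (1.89) and Klf2 (1.54), the last a factor of resting MΦs, led them. In Irf4+ MΦs 14 of 19 were lower and none higher, against 3.07% and 3.44%, with a median of -1.58 against 0.07. Garnl3 had 142 UMIs in Irf4- MΦs and none in Irf4+ MΦs, where a count of 0 allows up to 2.22 CPM against 11.4 CPM. It was among the 19 only through its level in Irf4- MΦs, so its count supports nothing. In Folr2+ MΦs 8 of 19 were lower, against 1.5%, with a median of -0.98 against 0.26. Cells split by Gata6 gave 0 of 19 in either direction, although the median was 0.75 against -0.04. The list does not hold Gata6, and its genes were listed as markers of the same MΦs that carry Selp.

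Of 14 tested LXR targets, 9 were higher and 1 lower in MΦs than in B cells, against 18% and 21.1% of all features. Cd5l, a secreted survival protein of MΦs, had a log2 ratio of 5.58, Lpl (lipoprotein lipase) 5.48 and Pltp (phospholipid transfer protein) 5.21, while Scd1, a fatty acid desaturase, was lower at -4.80. In Selp+ MΦs 3 of 15 were lower, against 3.25% of all features, and none higher. These were Scd2 (-2.66), Lpl (-1.88) and Nr1h3 itself (-1.83), with a list median of -0.16 against -0.12. Nr1h3 was among the 15 only through its level in Selp- cells, so its count supports nothing. In Irf4+ MΦs 1 of 15, Lpl, was higher at 1.54, against 3.44%, and 3 were lower, against 3.07%, namely Mylip (-1.80), which encodes a ligase for the LDL receptor, Apoe (-1.24) and the cholesterol exporter Abca1 (-1.13). In Folr2+ MΦs 2 of 15 were higher, against 1.75%, namely Smpdl3a (1.10) and Pltp (1.10). Lpl was at 343 CPM in Selp+ and 1266 CPM in Selp- MΦs. The list as a whole did not share its fall, with the median of -0.16 against -0.12, and any link to a receptor was not tested.

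Of 13 tested PPAR targets, 6 were higher and none lower in MΦs than in B cells, against 18% and 21.1% of all features. The scavenger receptor Cd36 had a log2 ratio of 5.52, Fabp4, a fatty acid carrier, had 5.47 and Plin2, which coats lipid droplets, had 5.36. In Selp+ MΦs 3 of 13, Lpl, Fabp5 (-1.18) and Plin2 (-1.02), were lower, against 3.25%, and none was higher, with a list median of -0.40 against -0.12. Lpl was also counted among the LXR targets, so the counts of these lists are not independent. In Irf4+ MΦs Lpl alone was called, higher, 1 of 13 against 3.44%, and in Folr2+ MΦs 0 of 13 were called with a median of 0.49 against 0.26.

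Of 17 genes of retinoid metabolism and response only 3 were tested against B cells, the rest being too low, and all 3 were higher in MΦs, against 18% of all features. Tgm2, a transglutaminase induced by retinoic acid, had a log2 ratio of 5.67, Dhrs3, which reduces retinal, had 4.61, and Aldh1a2, which makes retinoic acid, had 3.11. Aldh1a2 was among the 3 only through its level in MΦs, so its count supports nothing. Tgm2 and Aldh1a2 were opposite within MΦs. Tgm2 was lower in Irf4+ MΦs (-1.24), at 436 against 1031 CPM. Aldh1a2 was higher there (1.53), at 29.6 against 9.58 CPM, and lower in Selp+ MΦs (-1.59), at 4.58 against 15.8 CPM. Gata6 had the sign of Tgm2 in Irf4+ MΦs and the sign opposite to Aldh1a2 in both splits.

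Of 14 tested coregulators, which bind the receptors to switch transcription on or off, 1 was higher and 2 lower in MΦs than in B cells, against 18% and 21.1% of all features. In Selp+ MΦs 1 of 14 was called, the corepressor Nrip1, higher at 1.03, against 0.542%. In the splits by Irf4 and by Folr2 0 of 14 were called, where 3.44% and 1.75% of all features were higher and 3.07% and 1.5% lower.

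Among 49 nuclear receptors searched, 32 had at least 1 UMI in MΦs, 32 in B cells and 29 in T/NK cells, and 20, 12 and 15 reached 5 CPM. Of 18 tested between MΦs and B cells, 8 were higher and 1 lower, against 18% and 21.1% of all features. Beyond the members, the vitamin D receptor Vdr, another partner of Rxra, was higher in MΦs (4.29), as was Rora (2.57). Vdr was lower in Selp+ MΦs (-2.33), at 10.5 against 56.7 CPM, higher in Irf4+ MΦs (2.32) and lower in Gata6+ MΦs (-1.81). Nr4a3, an immediate early orphan receptor, had the same signs, at -2.32, 2.64 and -2.06. Of the third subtype in each family, Rarg was read at 8.71 CPM in MΦs and Ppara at 0.943 CPM, from 13 UMIs.

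**Figure D4:**
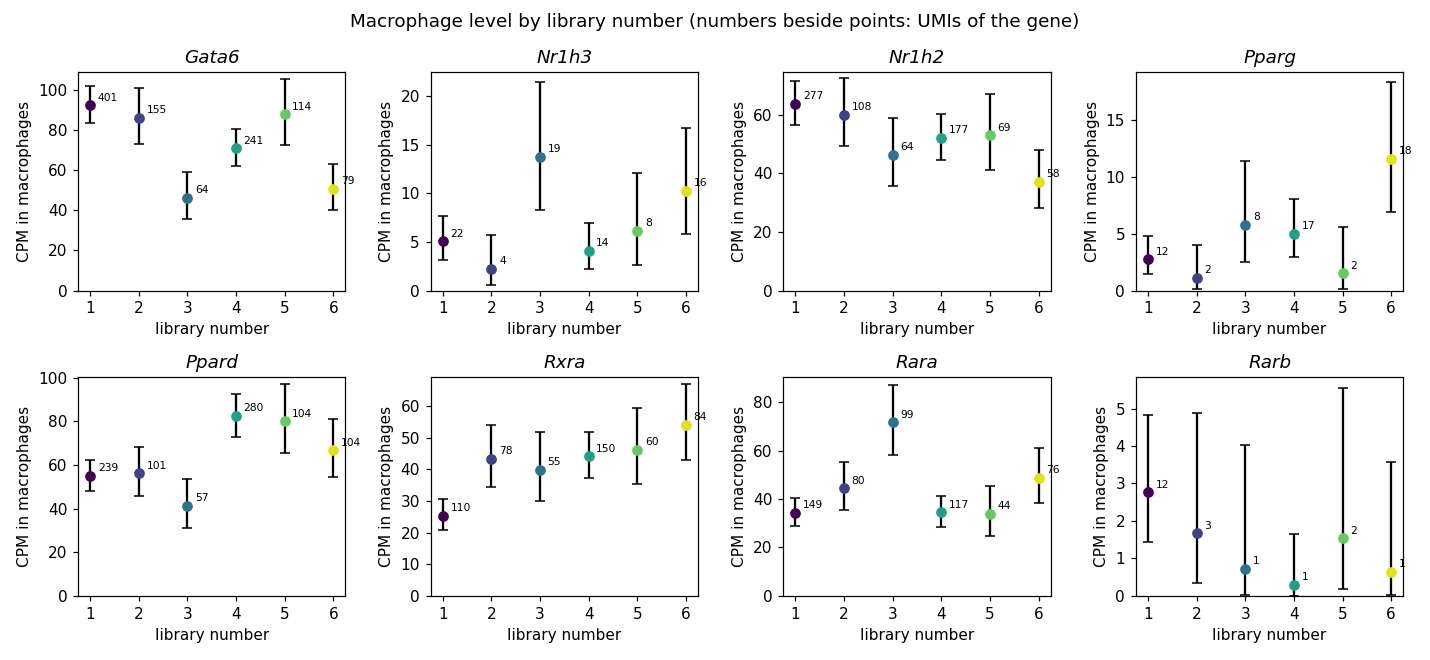
Level (CPM, linear axis) of the 8 genes in the MΦs of each library, by library number, with 95% Poisson intervals and the UMIs of the gene beside each point. Gata6 is lowest in libraries 3 and 6 (46.3 and 50.7 CPM), and Nr1h3 is highest in the same libraries (13.7 and 10.3 CPM); numbers name libraries and carry no order.

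The members differed in how far they varied over libraries. The highest MΦ level was 1.71 times the lowest for Nr1h2, 1.99 for Gata6, 2.00 for Ppard, 2.11 for Rara and 2.13 for Rxra. It was 6.18 times for Nr1h3 and 10.4 times for Pparg, whose lowest libraries held 4 and 2 UMIs. The makeup of the MΦs varied as well, with Selp+ cells forming 11.03% to 48.6% and Irf4+ cells 4.57% to 23.4% of the MΦs of a library. Library 6 had the smallest share of Selp+ and the largest of Irf4+ MΦs. For Gata6, the no-marker MΦs alone ranged from 45.6 to 96.4 CPM. In the pool, fewer cells of a kind and less RNA per cell cannot be told apart for levels of all MΦs.

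The features most like each member were named by the Pearson correlation of log2(CPM + 1) over 36 points (6 libraries and 6 separate groups) among 7338 features. The points share libraries and cell groups, so r is a description only. For Gata6 they were Mcemp1 (0.932), Fzd1 (0.927) and Csf3r (0.922), all 3 highest in Selp+ only MΦs. For Rxra they were Ptgs1 (0.960), Ptgir (0.941) and Dab2 (0.901). Ppard was most like Abhd17c (0.951), Mvd (0.891) and Slc2a6 (0.889), and Nr1h2 most like Mllt10 (0.921), Eftud2 (0.917) and Nfkbiz (0.873). The closest feature to Pparg was Nes, at 0.788, followed by Dhrs9 (0.766) and Olfm1 (0.763). Nr1h3 reached 0.675 (Ykt6), Rara 0.673 (Atp5g1) and Rarb 0.545 (Safb2), and such values single out no gene. The counts of Nr1h3 and Rarb were sparse, while Rara had 565 UMIs in MΦs.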

How the data were processed

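Per the labels and the paper's methods, the authors ran Cell Ranger (version 2.2 in the submitters' processing notes, with Seurat 3.0, while the methods name an earlier release) and aligned reads with STAR to human and mouse genomes (mouse mm10, GRCm38). The annotation version is not given in the sources used here. They deposited raw UMI counts per mouse gene and cell for 6 joined libraries, with no normalization. Library numbers matched no label.

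Of 7760 barcodes, 95 were left out for having under 500 genes, a log gene number under 0.8 of the log UMI number, or over 10% of UMIs from mitochondrial genes. Counts were summed per group and divided by its UMIs (CPM) with numpy 2.4.6 and scipy 1.17.1 in Python 3.11.15. Intervals of ratios are exact conditional ones, and 95% intervals cover counting error only. Free RNA was not removed. Scrublet (scanpy 1.11.5) marked 68 barcodes (0.876%) as doublets, among them 1 of the 153 cells in both lymphocyte groups, and none was left out. Thinning to 1500 UMIs left out 313 kept cells. Genes named are the 8 members, the 3 features most like each, and per list and comparison the called genes with the 4 largest log2 ratios, while other genes named (markers, family members, the other receptor subtypes) were chosen after their values were seen. Genes that define a comparison's groups were not tested in it. Gene positions are from GENCODE vM21. The members and lists were chosen with earlier results of these data known. The calls were tried on simulated counts with Poisson error and no added spread between libraries. Only genes well above the 5 CPM filter were changed there, by more than the limit for a call. That trial does not cover calls near the limit or calls of low genes. Alternatives were cell filters, thinning, pseudocount, expression filter, group limits, ways of averaging and leaving out each library.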

Additional observations from a re-analysis of the deposited data

How the results depend on the processing

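No direction of a called value reversed under any setting tried, while several uncalled ratios changed sign under some. Among these were Nr1h3 and Rarb in the Irf4 and Folr2 splits. Nr1h3 in Selp+ only over Irf4+ only MΦs went from -1.55 to 0.48 by the median of library ratios. Pparg in Gata6+ over Gata6- MΦs went from -1.52 to 0.12 after thinning. Members called numbered 3 over B cells and 3 over T/NK cells in the report, and 5 over B cells with a filter of 1 CPM, 6 over B cells and 5 over T/NK cells with no filter on low values, and 2 over T/NK cells after thinning, without Ppard. With stricter group limits the log2 ratios over T/NK cells were 3.37 for Gata6 and 2.21 for Rxra, both still called. In Selp+ over Selp- MΦs (2 in the report) the count was 1 with 5 CPM added, 0 after thinning, and 3, with Pparg added, with a filter of 1 CPM or none. In Folr2+ MΦs (0 in the report) it was 1 by the mean of CPM per cell, 1 after thinning and 1 with cells split at 2 UMIs against 0, each time Gata6. In Irf4+ MΦs (1 in the report) it was 2 by the median of library ratios, 2 by the mean per cell and 3 after thinning, with Ppard or Rxra added. In Selp+ only over Irf4+ only MΦs (1 in the report) it was 3 by the median of library ratios, 2 by the mean per cell and 2 with the split at 2 UMIs. In Gata6+ over Gata6- MΦs (0 in the report) it was 1, Nr1h3, with at least 1000 genes per cell, by the mean per cell, without Scrublet doublets, with a filter of 1 CPM and with none. Leaving out each library in turn gave 3 to 3 members over B cells, 3 to 3 over T/NK cells, 0 to 2 in Selp+, 0 to 1 in Folr2+, 1 to 2 in Irf4+, 1 to 2 in Selp+ only over Irf4+ only and 0 to 1 in Gata6+ MΦs. In the Selp split only Nr1h3 was called without library 1, and no member without library 3 or library 6. Gata6 was called in Folr2+ MΦs without library 3 (-1.70), Rxra in Irf4+ MΦs without library 6 (-1.04) and Ppard in Selp+ only over Irf4+ only MΦs without library 4 (1.00). Nr1h3 was called in Gata6+ MΦs without library 2 (-1.32) or library 4 (-1.5), since it then reached 5 CPM. How far a ratio moved depended on the setting. The log2 ratio of Gata6 in MΦs over B cells was 3.79 with 5 CPM added and 6.28 after thinning, against 5.35 in the report. With a library left out this ratio ran from 5.24 (library 3) to 5.53 (library 1). The cause of these changes was not tested, other than that filters change which genes are tested. Depth limits Rarb, Pparg and Nr1h3, with 20, 59 and 83 UMIs in MΦs. No paired analysis was possible because each condition has 1 library and library numbers matched no label.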

Other observations

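Cells in none of the 3 classes (1277 cells, median 2735 UMIs) held 9.08 CPM of Gata6 (6.46–12.4), 8.85 CPM of Rxra (6.26–12.1) and 84.1 CPM of Rara (75.6–93.2). The 153 cells in both lymphocyte groups held 1 Gata6 UMI and 0 of Rxra, against 118 of Nr1h2 and 115 of Rara. Libraries 3 and 6, with the lowest Gata6 in MΦs, held 47 and 121 Irf4+ MΦs and 50 and 57 Selp+ MΦs. In library 6 the Selp+ MΦs alone held 117 CPM of Gata6 (72.1–178), within the range of the other libraries. Library 3 had the lowest level of the Selp+ only MΦs, at 80.6 CPM, where the highest library held 133 CPM.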
